A study of Bos grunniens with 3 samples.

Results

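A set of 6 chemokine system genes was followed in single cells of yak skin. They are the secreted chemokines *CCL27*, *CXCL14*, *CCL20* and *CCL21* and the atypical, or scavenger, chemokine receptors *ACKR1* and *ACKR4*. The genes were found by their symbols in the gene list of the libraries, which holds 26924 genes. All 6 symbols had exactly 1 entry, with the identifiers ENSBGRG00000002879 for *CCL27*, ENSBGRG00000002284 for *CXCL14*, ENSBGRG00000010021 for *CCL20*, ENSBGRG00000002952 for *CCL21*, ENSBGRG00000012260 for *ACKR1* and ENSBGRG00000007089 for *ACKR4*. The symbols alone, and no threshold on a measured value, defined the set.

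Scapular skin of healthy Tianzhu white yak of about 2 years was sampled in the growth phase of the hair cycle (anagen), in its regression phase (catagen) and in its resting phase (telogen). The skin was digested with dispase, single follicles were pulled out, and their cells were freed with trypsin and sequenced with the 10x Genomics single cell 3′ chemistry. There was 1 library per stage, so the stage, the library and the version of the counting software changed together and cannot be told apart. The protocol text of the catagen sample names anagen, although its title, its description and its stage label name catagen.

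Chemokines are small secreted proteins that attract leukocytes along a gradient, and each acts on G protein-coupled receptors of the cells it attracts. *CCL27* is made by keratinocytes and draws skin-homing T cells through CCR10, *CCL20* draws cells with CCR6, such as immature dendritic cells, and *CXCL14* is made constitutively by many epithelia. *CCL21* is a product of lymphatic endothelium that guides dendritic cells and T cells with CCR7. Atypical receptors bind chemokines without the usual signal: *ACKR1* is known from red cells and the endothelium of venules, and *ACKR4* takes up *CCL21* and related chemokines.

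After cells with under 200 detected genes had been left out, 11987 anagen, 12062 catagen and 14502 telogen cells remained. Their median depth was 5256, 3350 and 5583.5 unique molecular identifiers (UMIs), and the shallowest anagen cell had 2404 UMIs, against 500 in both other libraries. Any pair of libraries shared between 40 and 49 cell barcodes. Levels are given as counts per 1000000 UMIs of the library, class or cluster (CPM), and the 95% intervals cover counting error only, not differences between animals. Cells were clustered without the 6 genes and named from markers as classes of like cells, with anagen and catagen clustered together (26 clusters) and telogen alone (19 clusters). No class could be given to 14.6% of the anagen, 10.2% of the catagen and 53.5% of the telogen cells. Because a class can be made up of different clusters in telogen, all 3 libraries were also clustered together (24 clusters), a choice made after the values had been seen. The boundaries of some of these 24 clusters moved when the same steps were run with other computing settings, so their levels are read beside those of the other clusterings.

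All 6 genes were detected in every library. *CCL27* was at 123 CPM (95% interval 121 to 126) in anagen, 21.4 CPM (20.1 to 22.7) in catagen and 87.7 CPM (85.9 to 89.5) in telogen. *CXCL14* was at 204, 189 and 333 CPM in the same order. *CCL20* was at 439, 218 and 121 CPM. Thus the catagen library was the lowest of the 3 for *CCL27*, whereas the telogen library was the highest for *CXCL14* and the lowest for *CCL20*. *CCL21* was at 11.6 CPM in anagen, 0.543 CPM in catagen and 0.464 CPM in telogen, from 957, 28 and 48 UMIs. *ACKR1* was at 7.20, 1.69 and 5.95 CPM, from 596, 87 and 615 UMIs. *ACKR4* was at 9.84, 34.5 and 20.6 CPM. The anagen library was thus the highest of the 3 for *CCL21* and the lowest for *ACKR4*, and *ACKR1* was low in catagen. With every cell reduced at random to 1500 UMIs, *CCL27* was seen in 10.5% of anagen, 2.80% of catagen and 7.86% of telogen cells, *CXCL14* in 21.0%, 19.1% and 27.4%, and *CCL20* in 17.2%, 5.48% and 4.77%. *CCL21* was seen in 0.275%, 0.0510% and 0.0519%, *ACKR1* in 0.425%, 0.0612% and 0.199%, and *ACKR4* in 1.47%, 4.51% and 2.60%. The order of these shares was that of the levels except for *CCL21*, which was seen in 5 catagen and 6 telogen cells. For this, 0 anagen, 2263 catagen and 2932 telogen cells were too shallow and were left out.

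**Figure D1:**
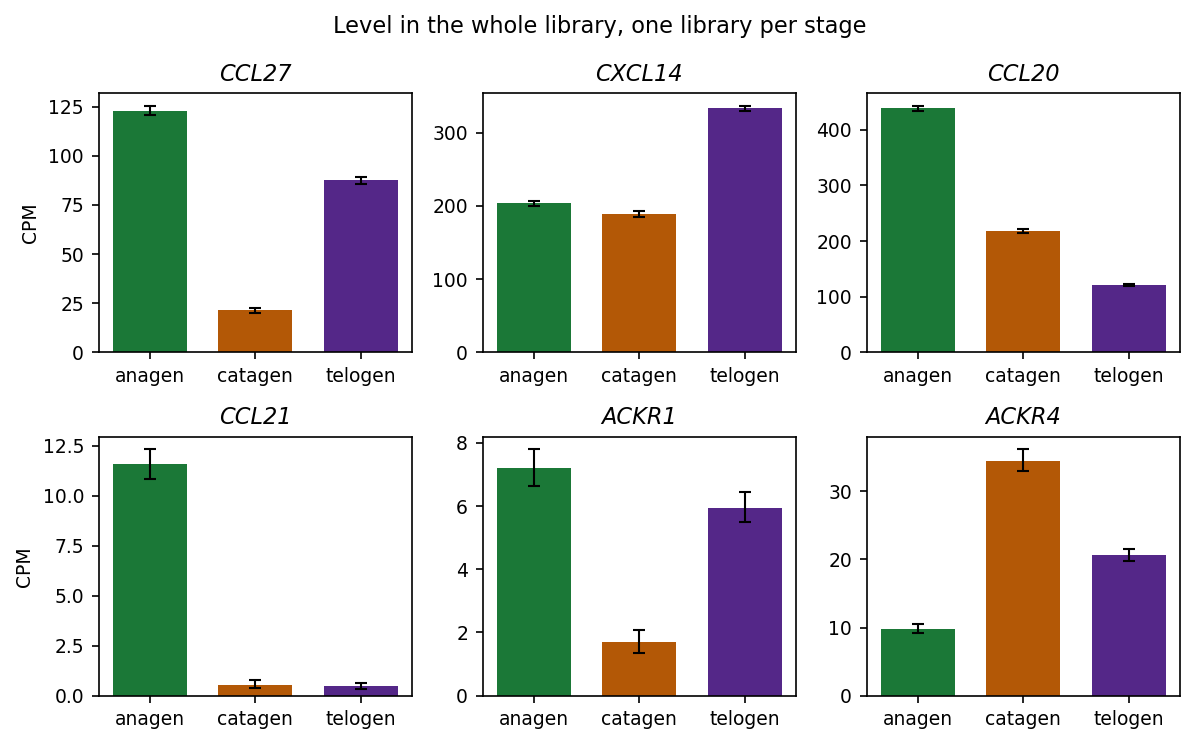
Level of each gene in the whole library, in CPM (each panel with its own scale from 0), with 1 bar for each of the anagen, catagen and telogen libraries and exact Poisson 95% intervals of the counts. *CCL27* and *ACKR1* were lowest in catagen, *CCL20* and *CCL21* highest in anagen, *CXCL14* highest in telogen at 333 CPM, and *ACKR4* highest in catagen at 34.5 CPM.

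Between catagen and anagen, 1 of the 6 genes was at least 2-fold higher (*ACKR4*, 3.51-fold) and 4 were at least 2-fold lower. The latter were *CCL27* (5.76-fold lower), *CCL20* (2.01-fold), *CCL21* (21.3-fold) and *ACKR1* (4.26-fold). Of these, *CCL20* was no longer 2-fold lower with cells of at least 2404 UMIs only (log2 ratio -0.92), nor *ACKR1* with the cluster makeup of anagen held (-0.83). The cluster with most *ACKR1* UMIs in that makeup was led by both *COL1A2* and *PECAM1*, so the share held was not that of endothelial cells alone. Among all 6054 genes with at least 10 CPM in either of these libraries, 4.41% were 2-fold higher and 3.47% 2-fold lower in catagen, and *ACKR1* lay under that level. Between telogen and anagen, *ACKR4* was 2.09-fold higher, *CCL20* 3.61-fold lower and *CCL21* 24.9-fold lower, against 3% of 5733 genes that were 2-fold higher and 7.83% that were 2-fold lower. The ratio of *ACKR4* was under 2-fold with the mean of the CPM of single cells (log2 ratio 0.80) and with the cluster makeup of anagen held (0.63). No stage had a replicate library, and no test of a stage difference was possible.

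The median gene itself differed by 0.28 on the log2 scale between catagen and anagen, and by -0.26 between telogen and anagen. Relative to the median gene the log2 ratios of catagen over anagen were -2.80 for *CCL27*, -0.38 for *CXCL14*, -1.29 for *CCL20*, -4.69 for *CCL21*, -2.37 for *ACKR1* and 1.53 for *ACKR4*. Those of telogen over anagen were -0.23 for *CCL27*, 0.97 for *CXCL14*, -1.59 for *CCL20*, -4.38 for *CCL21*, -0.01 for *ACKR1* and 1.33 for *ACKR4*. No gene changed its direction on this scale, although the telogen ratio of *ACKR1* was then close to 0. On the same scale the numbers of genes past 2-fold were 122 higher and 505 lower in catagen, in place of 267 and 210, and 316 higher and 254 lower in telogen, in place of 172 and 449.

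**Figure D2:**
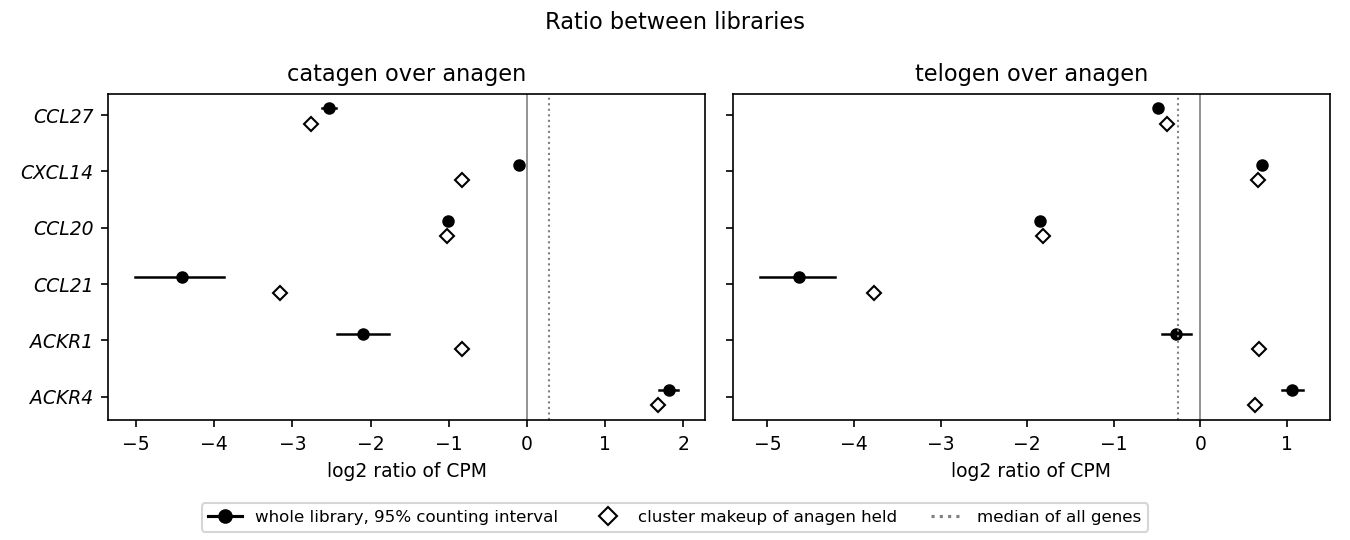
Log2 ratio of the CPM of catagen over anagen (left) and telogen over anagen (right) for the 6 genes. Filled circles are whole libraries with 95% counting intervals, open diamonds are the ratios with the cluster makeup of anagen held in both libraries, and the dotted line is the median of all genes. *CCL21* lay lowest in both panels, and for *ACKR1* in telogen the circle was at -0.28 and the diamond at 0.68.

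The 6 genes were found in different compartments. Taken by its UMIs summed over the libraries in which it was named, the class with the highest level was the Basal-like class for *CCL27*, the Hair stem and outer sheath-like class for *CXCL14*, the Upper follicle-like class for *CCL20* and *ACKR4*, and the Endothelial-like class for *CCL21* and *ACKR1*. For *CCL20* this order rests on which libraries a class was named in, since the IFE-DC-like class was also named in telogen and in catagen had the higher level. Basal-like cells were named from raised *KRT14*, *KRT5*, *COL17A1*, *ITGA6*, *ITGB4* and *KRT15*, and Hair stem and outer sheath-like cells from *LHX2*, *SFRP1*, *LGR5* and others of their list. Upper follicle-like cells rested on *KRT79*, *GATA6* and *KRT17*, and no telogen cluster met that name. Endothelial-like cells had raised *PECAM1*, *CDH5*, *VWF*, *EMCN*, *KDR* and *TEK* in both clusterings, and numbered only 82 in anagen, 48 in catagen and 47 in telogen.

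**Figure D3:**
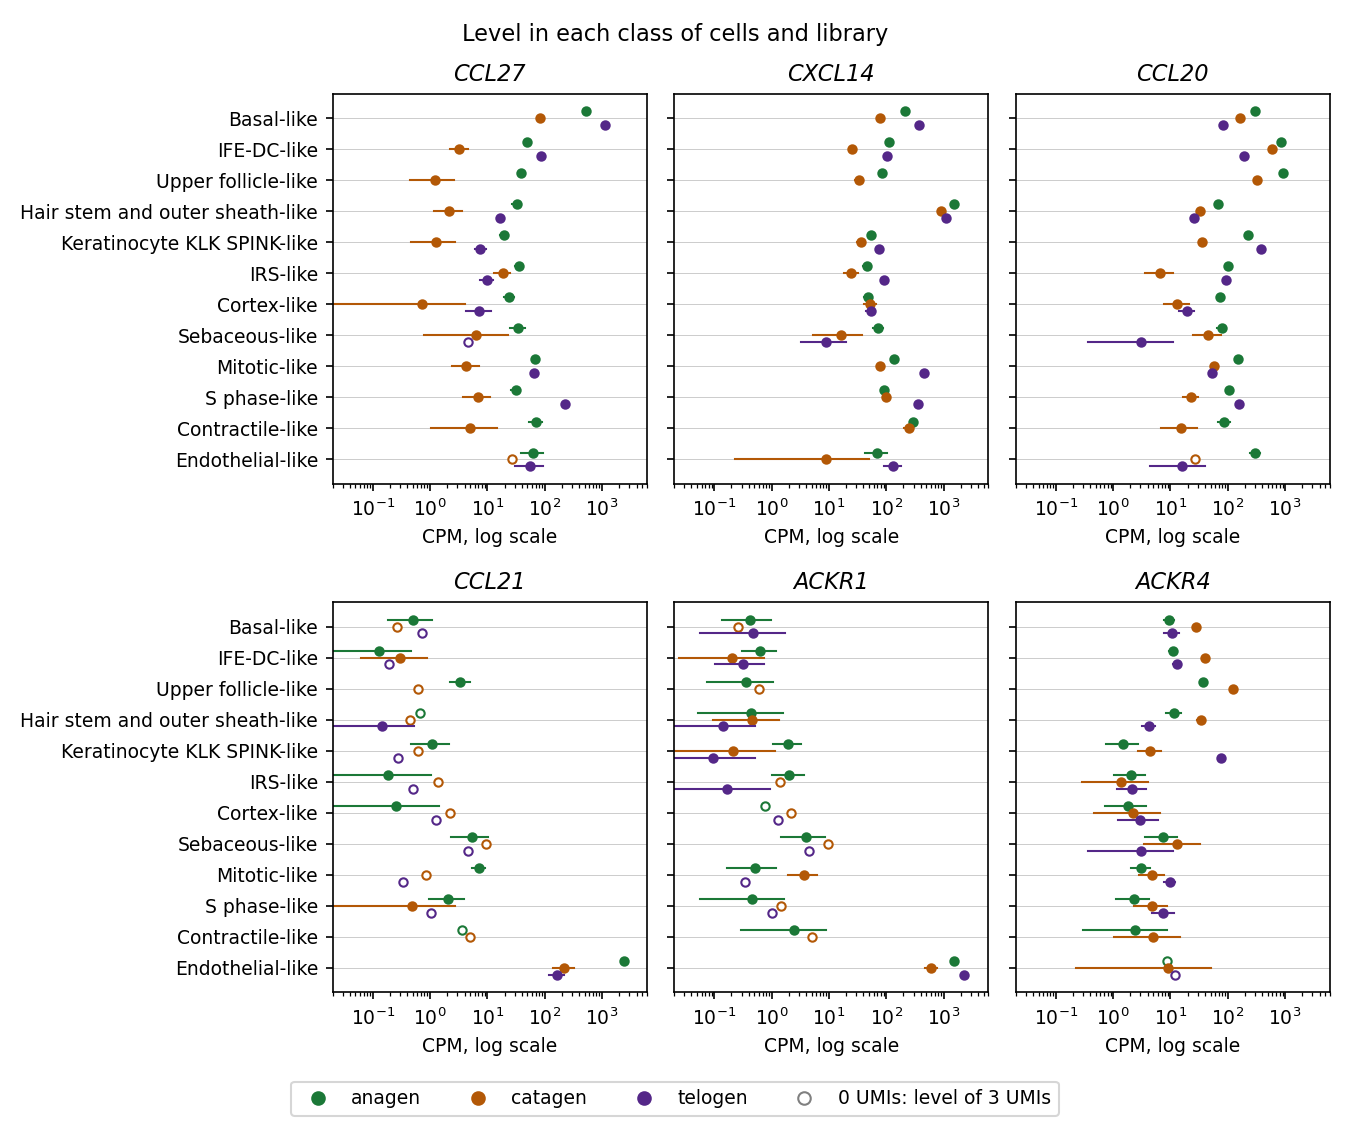
Level of each gene in the named classes of cells (CPM, log scale), with 1 point per library and exact Poisson 95% intervals. The Mesenchymal-like class of 27 anagen and 4 catagen cells is not drawn. Open points mark 0 UMIs and are drawn at the level that 3 UMIs would give, and drawn classes without a point were not named in that library. *CCL21* and *ACKR1* stood far to the right in the Endothelial-like class, with 2424 and 1522 CPM in anagen, while *CCL27* was highest in Basal-like cells. *CXCL14* was highest in Hair stem and outer sheath-like cells in anagen and telogen, and in catagen 4 Mesenchymal-like cells with 20 UMIs had more, 1423 CPM against 920.3 CPM.

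*CCL27*, the T cell-attracting chemokine of the epidermis, was found mainly in a subset of Basal-like cells. Its level in this class was 529 CPM (516 to 542) in anagen, 82.7 CPM (77.5 to 88.1) in catagen and 1127 CPM (1095 to 1160) in telogen. In all other cells it was 55.3, 3.79 and 43.6 CPM. With 10 CPM added to both sides, the class exceeded the other cells by 3.05, 2.75 and 4.41 on the log2 scale. The class held 61.5% of the *CCL27* UMIs in anagen, 86.2% in catagen and 52.2% in telogen.

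Basal-like cells were not uniform in *CCL27*. In the clustering of anagen and catagen the class was made up of 3 clusters. The one led by *CCL27*, *IL1R2* and *SCUBE2* had 1037 CPM in anagen and 166 CPM in catagen. Another, led by *KRT15* and *IL1R2*, had 733 and 123 CPM. The third, led by *P3H2* and *MYLK*, had 66.8 and 10.4 CPM, so that within basal cells the level differed over 10-fold in the same library. In telogen the class was a single cluster, led by *CCL27* and *IL1R2*, which is why its level cannot be read against the anagen class as a whole.

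Clustered together, the 3 libraries shared an *IL1R2*/*SCUBE2* cluster of 656 anagen, 851 catagen and 711 telogen cells. *CCL27* was at 1281 CPM (1247 to 1316) there in anagen, 231 CPM (215 to 248) in catagen and 1121 CPM (1089 to 1153) in telogen. Catagen was 5.55-fold lower than anagen, whereas telogen was 1.14-fold lower. A second Basal-like cluster, led by *CCL27* and *CD74*, had 379.9, 20.8 and 251 CPM. The class comparison above gave a log2 ratio of telogen over anagen of 1.09, but the Basal-like clusters of the shared clustering together gave -0.37, so the direction depended on how the cells were grouped. For catagen both gave a lower level, with log2 ratios of -2.68 and -2.52. The gene was lower in catagen than in anagen in all 19 clusters that had at least 20 *CCL27* UMIs from both libraries together, each with its interval below 0. Between telogen and anagen it was lower in 19 of 21 such clusters and higher in 2. The clusters of these counts, here and for the other genes below, share the same libraries and are not independent. They include clusters outside the Basal-like class, such as an inner root sheath-like one with 161 anagen and 40 catagen UMIs. The part that free RNA has in such counts was not tested.

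The share of cells in which the gene was seen followed the same order as the level in the class. When every cell was reduced at random to 1500 UMIs, 28.7% of Basal-like cells had a *CCL27* UMI in anagen, 8.68% in catagen and 67.5% in telogen. As for the level, the telogen class was only the cluster led by *CCL27* and *IL1R2*. Its share therefore cannot be read against that of the anagen class as a whole. In Endothelial-like cells, which should lack the gene, the shares were 9 of 82 anagen cells, 0 of 32 catagen cells, which allows up to 9.38%, and 2.56% of 39 telogen cells. The median depths before thinning were 4737, 3401.5 and 6066 UMIs for Basal-like and 3311, 2623 and 4127 UMIs for Endothelial-like cells. The 32 catagen cells set only a wide limit, and larger catagen classes gave lower shares. A *CCL27* UMI was seen in 0.162% of 1851 Hair stem and outer sheath-like, 0.333% of 1503 IFE-DC-like (differentiated epidermis) and 0.125% of 802 Upper follicle-like cells of catagen, with median depths of 2676, 5778 and 4924 UMIs, so the catagen share in Basal-like cells lay above that in these classes. The genes whose level over the 26 anagen and catagen clusters was most like that of *CCL27* were *IL1R2* (Pearson r = 0.80), the decoy receptor for interleukin 1, *TGFBI* (0.79) and *SCUBE2* (0.77), and their r over the 19 telogen clusters was 0.81, 0.65 and 0.84. These correlations are over clusters that share libraries and are a description only.

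Among the named classes, *CXCL14* summed over the libraries was highest in Hair stem and outer sheath-like cells, although in anagen and telogen most of its UMIs lay outside them. The Hair stem and outer sheath-like class had 1495 CPM (1459 to 1531) in anagen, 920 CPM (897 to 944) in catagen and 1108 CPM (1090 to 1125) in telogen. In all other cells the gene was at 128, 82.5 and 213 CPM, so the class was above the rest in each library, by 3.44, 3.33 and 2.33 on the log2 scale with 10 CPM added. It held 40.4%, 62.0% and 44.8% of the *CXCL14* UMIs, in 957, 2499 and 1988 cells. The catagen library thus had a lower level in this class than the anagen library, but more cells of the class, and the levels of the whole libraries were close.

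Within the class the clusters differed. The cluster led by *PPP2R2B*, *FAM13A* and *SFRP1* had 1729 CPM in anagen and 917 CPM in catagen, while that led by *PTHLH* and *S100A4* had 838 and 929 CPM. In telogen, the cluster led by *IGFBP5*, *CCN2* and *C3* had 1918 CPM, and the other cluster of the class, led by *TAGLN* and *TPM1*, had 233 CPM. An unnamed cluster led by *FGF18* and *PMP22* was as rich, with 1753 CPM in 47 anagen cells and 846 CPM in 426 catagen cells. High *CXCL14* was therefore not limited to the named class.

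In the clustering of all 3 libraries, the *SFRP1*/*IGFBP5* cluster had 1869 CPM (1810 to 1930.1) in anagen, 879 CPM (848 to 910.3) in catagen and 2471 CPM (2415 to 2528) in telogen. The *PTHLH*/*SEMA3E* cluster had 400.4, 506 and 552 CPM. Catagen was thus 2.13-fold lower than anagen in the first of these clusters and 1.26-fold higher in the second, and telogen was 1.32-fold and 1.38-fold higher. The class comparison gave a log2 ratio of telogen over anagen of -0.43, but the same class in the clustering of all 3 libraries gave 0.55. Over all clusters with at least 20 UMIs, *CXCL14* was lower in catagen in 18 of 23 and higher in telogen in 15 of 24. With the cluster makeup of anagen held in both libraries, an alternative chosen after the data had been seen, the log2 ratio of catagen over anagen moved from -0.11 to -0.83.

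Thinned to 1500 UMIs, 74.3% of the Hair stem and outer sheath-like cells of anagen had a *CXCL14* UMI, 61.2% of those of catagen and 57.5% of those of telogen. The telogen class of 1988 cells included the *TAGLN*/*TPM1* cluster of 773 cells, which was low in *CXCL14*. An anagen and catagen cluster that likewise had *TPM1*, *S100A2*, *CRABP2*, *PDZRN3* and *NMB* among its leading genes was named Keratinocyte KLK SPINK-like. The telogen share thus cannot be read against the anagen share. In Endothelial-like cells the shares were 7.32%, 0 of 32 cells and 7.69%, so the shares of the class lay well above this background in each library. The most similar genes over the anagen and catagen clusters were *USP28* (r = 0.90), *CYS1* (0.89) and *FAM13A* (0.85), with r of 0.79, 0.70 and 0.52 over the telogen clusters.

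*CCL20*, the ligand of CCR6, was highest in suprabasal and upper follicle cells but not limited to them, and it was high in few cells at a time. The 1% of cells with the most held 36.7% of its UMIs in anagen, 65.7% in catagen and 70.3% in telogen, and single cells reached 484, 236 and 587 UMIs. The Upper follicle-like class had 924 CPM (904 to 945) in anagen and 319 CPM (303 to 335) in catagen. All other cells had 385 and 207 CPM. With 10 CPM added, the class was above them by only 1.24 and 0.60 on the log2 scale. The IFE-DC-like class, the differentiated cells of the epidermis between follicles, had 841 CPM (827 to 856), 580 CPM (565 to 595) and 194 CPM (188 to 201) in anagen, catagen and telogen. Both classes had their highest level in anagen.

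In anagen and catagen the cluster richest in *CCL20* belonged to no named class. An unnamed cluster of 68 anagen and 86 catagen cells, led by *CNFN*, *KLK5* and *UPK3A*, had 3572 CPM in anagen and 1037 CPM in catagen. *CNFN* and *KLK5*, which encode a cornified envelope protein and a protease of desquamation, belong to the outermost living keratinocytes. In telogen the highest level, 448 CPM, was in a cluster of 768 cells led by *KRT23*, *KLK5* and *CNFN*, part of the Keratinocyte KLK SPINK-like class. That class had 386 CPM and 32.8% of the telogen UMIs of *CCL20*. A second unnamed cluster of anagen and catagen cells, led by *FST*, *MMP1*, *EMP3* and *NRG1*, had 1082 CPM in 541 anagen cells and 395 CPM in 217 catagen cells.

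Clustered together, the 3 libraries shared a *CNFN*/*KLK5* cluster, wider than the unnamed one and IFE-DC-like by its markers. It had *CCL20* at 1634 CPM (1587 to 1682) in 272 anagen cells, 549 CPM (518 to 582) in 237 catagen cells and 973 CPM (935 to 1012) in 236 telogen cells. The highest single cell held 10.7%, 11.5% and 23.2% of these UMIs. The *KRT79*/*KRT17* cluster had 971, 335 and 118 CPM, and the *KRT1*/*KRT10* cluster had 819, 639 and 179.9 CPM. The level was thus lower in catagen than in anagen and lowest in telogen in the latter pair of clusters, while in the *CNFN*/*KLK5* cluster catagen was 2.97-fold and telogen 1.68-fold below anagen. Of the clusters with at least 20 UMIs, 20 of 22 were lower in catagen than in anagen and 20 of 24 lower in telogen. A cluster of 19 anagen cells led by *RGS1*, *VIM* and *FCER1A* had 1656 CPM of *CCL20*, from 185 UMIs of which 103 were in 1 cell, against 0 UMIs in 17 catagen and 2 UMIs in 49 telogen cells.

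Thinned to 1500 UMIs, a *CCL20* UMI was seen in 28.4% of Upper follicle-like cells of anagen and 7.98% of those of catagen, and in 25.7%, 15.2% and 6.49% of IFE-DC-like cells of anagen, catagen and telogen. The shares in Endothelial-like cells were 9.76%, 0 of 32 cells and 0 of 39 cells, and in Cortex-like cells 7.96%, 1.08% and 1.88%. Thinned shares below these were not read as expression. The most similar genes over the anagen and catagen clusters were *REL* (r = 0.86), a subunit of NF-kB, *ITPKC* (0.86) and *BLZF1* (0.85). Over the telogen clusters their r was 0.12, 0.43 and 0.10, so this likeness did not extend to telogen.

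**Figure D4:**
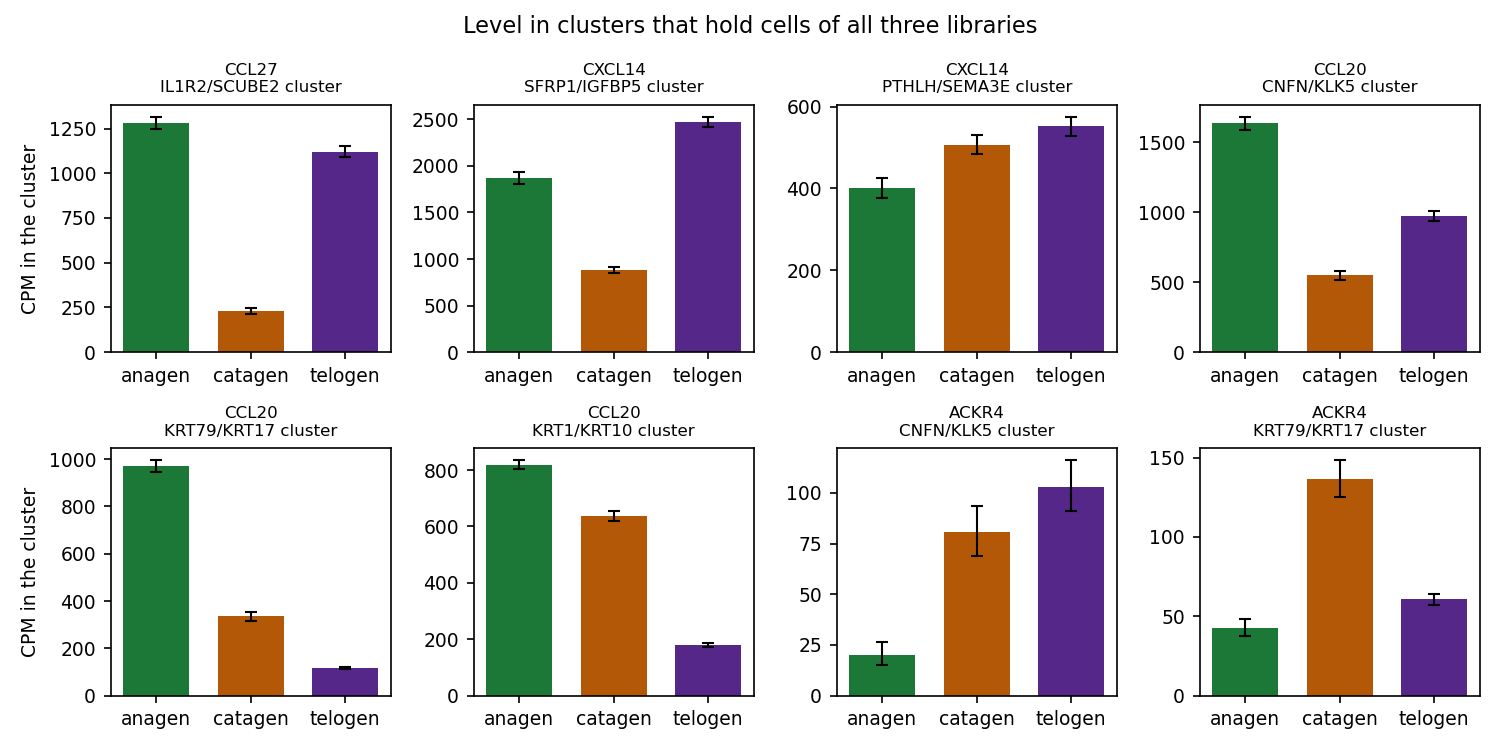
Level of *CCL27*, *CXCL14*, *CCL20* and *ACKR4* (CPM from 0, each panel with its own scale) in single clusters that hold cells of the anagen, catagen and telogen libraries, with exact Poisson 95% intervals. *CCL27* was lowest in catagen at 231 CPM, *CCL20* was highest in anagen in all 3 clusters shown, and *ACKR4* was lowest in anagen in both clusters shown.

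Most UMIs of *CCL21* and of *ACKR1* lay in the small Endothelial-like class. *CCL21* was at 2424 CPM (2262 to 2596) in the 82 anagen cells of the class, 215 CPM (138 to 320.5) in the 48 catagen cells and 163 CPM (117 to 221) in the 47 telogen cells. All other cells had 1.64, 0.0778 and 0.0678 CPM. The class held 85.9%, 85.7% and 85.4% of the *CCL21* UMIs of the libraries. *ACKR1* was at 1522 CPM (1393 to 1659), 601 CPM (466 to 764) and 2267 CPM (2085 to 2461) in the class, with 86.6%, 77.0% and 92.8% of its UMIs. Outside the class, 41 anagen, 2 catagen and 6 telogen cells had *CCL21* UMIs, and 50, 8 and 24 cells had *ACKR1* UMIs. The highest of these cells had 21, 3 and 2 UMIs of *CCL21* and 13, 8 and 12 of *ACKR1*. Within the class *CCL21* was thus highest in anagen and *ACKR1* in telogen, although in the whole libraries *ACKR1* was highest in anagen. The makeup of the class differed between the libraries, as given below.

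No single Endothelial-like cell had UMIs of both genes. Of the 177 cells of the 3 libraries, 32 had *CCL21* alone, 63 had *ACKR1* alone and 82 had neither. In anagen these were 16, 37 and 29 cells, in catagen 8, 8 and 32, and in telogen 8, 18 and 21. Outside the class, 2 anagen cells had UMIs of both genes. Of the list of 6 lymphatic markers, 4 had an entry, and all 4 were seen in the cells with *CCL21*. All 32 cells had *MMRN1*, 14 had *RELN*, 8 had *PROX1*, the transcription factor of lymphatic identity, and 2 had *FLT4*, whereas 0 had *VWF*, *SELE* or *SELP*. Of the 8 telogen cells among them, 0 had *PROX1* or *FLT4*. Of the 63 cells with *ACKR1*, 47 had *VWF*, 45 had *SELE* and 45 had *SELP*, the adhesion molecules of activated and venular endothelium, while 0 had *PROX1*, *RELN* or *FLT4* and 11 had *MMRN1*. *PECAM1*, a general endothelial gene, was seen in 29 of the 32 and 59 of the 63 cells, but in only 36 of the 82 cells with neither gene. The median depth of these groups was 3272.5, 3679 and 2617.5 UMIs. Of the 82 cells with neither gene, 18 had *MMRN1*, 4 had *RELN* and 4 had *PROX1*, while 13 had *VWF* and 6 had *SELP*. Of those 82 cells, 12 had *PTPRC*, a gene of leukocytes, which 0 of the other cells had. By this gene the class was not pure. Other leukocyte genes looked at differed. *LAPTM5* was in 21 of the 82 cells, 10 of the 32 with *CCL21* and 0 of the 63 with *ACKR1*. *CORO1A* was in 18, 0 and 12 of them, *CD53* in 2, 0 and 0, and *CD52* in 0 of each. By library, *PTPRC* was seen in 5 anagen, 7 catagen and 0 telogen cells with neither gene. In those cells *LAPTM5* was seen in 14, 7 and 0, and *CORO1A* in 8, 9 and 1. *LAPTM5* was also seen in 4 of the 8 telogen cells with *CCL21*, and *CORO1A* in 5 of the 18 with *ACKR1*. Levels, shares and ratios of the class thus compare cells of unlike makeup between the libraries. The groups of cells were defined by their UMIs of *CCL21* and *ACKR1*, and the values are a description.

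**Figure D5:**
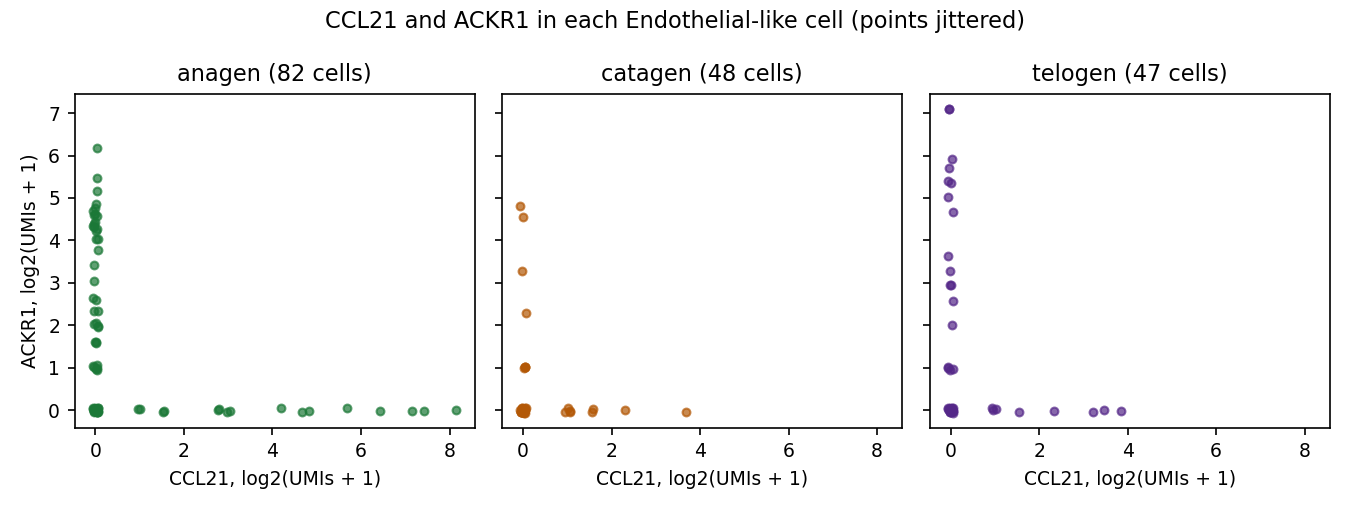
UMIs of *CCL21* (x axis) and *ACKR1* (y axis) in each Endothelial-like cell, as log2(UMIs + 1) with a small random shift, in anagen (82 cells), catagen (48 cells) and telogen (47 cells). All cells lie on one axis or at the origin, and the highest anagen cell reached 277 *CCL21* UMIs.

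The anagen level of *CCL21* rested on few cells. The 4 highest Endothelial-like cells held 670 of its 822 UMIs there, or 81.5%, and the highest single cell held 277. The number of cells with *CCL21* differed less, with 16, 8 and 8 cells, and the median among them was 12, 1.5 and 3 UMIs in anagen, catagen and telogen. Without the 4 cells with the most *CCL21* UMIs in each library, a choice made after the data had been seen, *CCL21* was at 3.47, 0.136 and 0.116 CPM in the whole anagen, catagen and telogen libraries, and at a log2 ratio over anagen of -4.67 (-6.00 to -3.61) in catagen and -4.90 (-5.87 to -4.07) in telogen, from 287, 7 and 12 UMIs. For *ACKR1* the 4 cells per library with the most of its UMIs held 29.7%, 77.0% and 63.1% of the UMIs, 388 of 615 in telogen. Without them it was at 5.06, 0.388 and 2.20 CPM, and catagen was 13.0-fold and telogen 2.30-fold lower than anagen, in place of 4.26-fold and a log2 ratio of -0.28. The cells with *CCL21* numbered 57, 10 and 14 in the whole libraries, and those with *ACKR1* 87, 16 and 42. Leaving out 4 cells thus takes a larger part of them in catagen and telogen. For this reason these ratios cannot show whether a difference from anagen is robust. For *ACKR1*, the median among cells with it was 10, 2.5 and 10 UMIs, and the highest cell had 70, 28 and 141. These UMIs are not corrected for depth, and summed over the cells with it *ACKR1* was at 3068 CPM in anagen, 2812 CPM in catagen and 4847 CPM in telogen. The telogen value comes from 571 UMIs in 18 cells, of which 1 had 141 and another 136. After thinning to 1500 UMIs, *ACKR1* was seen in 40.2%, 15.6% and 43.6% of Endothelial-like cells and *CCL21* in 17.1%, 15.6% and 12.8%, against 0.161% of 620 anagen IRS-like cells (inner root sheath) for either gene and 0 of 213 catagen and 0 of 376 telogen IRS-like cells, which allows up to 1.41% and 0.798%.

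The log2 ratio of *ACKR1* within the class was -1.34 (-1.73 to -0.97) for catagen over anagen and 0.57 (0.40 to 0.75) for telogen over anagen. For the whole library the telogen ratio was -0.28, beside an Endothelial-like class of 47 cells in telogen against 82 in anagen. With a coarser clustering of telogen the ratio within the class was -0.06, so its direction was not stable. The genes most like *ACKR1* over the anagen and catagen clusters were *SELP*, *SPARCL1* and *SELE*, with r of 0.996, 0.995 and 0.994, and over the telogen clusters it was 0.999 for each. Those most like *CCL21* were *GMFG*, *LAPTM5* and *PTPRC*, with r of 0.996, 0.995 and 0.995, but 0.51, 0.18 and -0.06 over the telogen clusters. All of these values rest on the 1 cluster that is high, and *LAPTM5* and *PTPRC* are leukocyte genes seen in the same cluster, in 10 and 0 of the 32 cells with *CCL21*.

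*ACKR4*, the scavenger of *CCL21* and related chemokines, was found in the epithelium, and the few Endothelial-like cells set only a wide limit. Its UMIs in the Endothelial-like class were 0 in anagen, 1 in catagen and 0 in telogen. The Upper follicle-like class had 36.4 CPM (32.4 to 40.7) in anagen and 122 CPM (112 to 132) in catagen, against 6.91 and 25.3 CPM in all other cells. The levels of all other cells lay under the Endothelial-like upper ends. The Upper follicle-like class, a single cluster, held 36.8% and 33.8% of the *ACKR4* UMIs. *ACKR4* was itself among the leading genes of this cluster beside *KRT79* and *KRT17*. In telogen, where the class was not named, the gene was at 86.8 CPM in the cluster led by *KRT23*, *KLK5* and *CNFN* and at 43.9 CPM in that led by *NT5E*, *KRT17* and *QPCT*, and these clusters held 37.4% and 35.2% of its UMIs.

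In the clustering of all 3 libraries the gene was found in the same *CNFN*/*KLK5* and *KRT79*/*KRT17* clusters that were rich in *CCL20*, but with another order of the stages. In the *CNFN*/*KLK5* cluster it was at 20.3 CPM (15.3 to 26.3) in anagen, 80.6 CPM (69.0 to 93.5) in catagen and 103 CPM (91.0 to 116) in telogen. In the *KRT79*/*KRT17* cluster it was at 42.7, 136 and 60.6 CPM. Anagen was thus the lowest for *ACKR4* in both clusters, and the highest for *CCL20*. Catagen was higher than anagen in 11 of 13 clusters with at least 20 UMIs, with the interval above 0 in 10. Telogen was higher than anagen in 8 of 14 such clusters and lower in 6, with the interval above 0 in 5 and below 0 in 4. The *KRT1*/*KRT10* cluster, for example, had 10.9 CPM in anagen, 39.8 CPM in catagen and 10.7 CPM in telogen. Both exceptions in catagen had an interval that held 0.

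The share of Upper follicle-like cells with an *ACKR4* UMI after thinning was 5.30% in anagen and 12.3% in catagen. It was 0.484% and 0.469% in IRS-like cells, and 0 of 82 and 0 of 32 in Endothelial-like cells, which allows up to 3.66% and 9.38%. The most similar genes over the anagen and catagen clusters were *ATP7A* (r = 0.79), a copper transporter, *TUFT1* (0.77) and *BCO2* (0.75), with r of 0.78, 0.61 and 0.55 over the telogen clusters.

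The chemokines of the epithelium were partly seen in the same cells. Of the cells with a *CCL27* UMI, 51.9% in anagen, 21.3% in catagen and 59.3% in telogen also had one of *CXCL14*, which was seen in 41.2%, 28.1% and 46.4% of all cells. The catagen share thus lay below that of all cells. Of the cells with an *ACKR4* UMI, 35.2%, 15.7% and 17.7% had one of *CCL20*, against 29.5%, 7.79% and 10.0% of all cells. These shares come from cells that were not thinned, and the part that depth has in them was not tested. An unnamed telogen cluster of 2496 cells had a median of only 992.5 UMIs, and *CCL27* was at 101 CPM, *CXCL14* at 295 CPM and *CCL20* at 163 CPM there, against 87.7, 333 and 121 CPM in the whole library, and *CCL20* was among the leading genes of the cluster. The part of free RNA in these levels was not tested.

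Other genes of the chemokine system were sparse in the whole libraries. Of 27 other chemokine ligands listed, 14 had an entry and 0 reached 10 CPM in a whole library, a level that *ACKR1* did not reach either. Of 19 other receptors, 15 had an entry and 1 reached 10 CPM, *CXCR4*, the receptor of CXCL12, with 13.9 CPM in anagen, 21.8 CPM in catagen and 14.8 CPM in telogen. It was 0.65 higher in catagen than in anagen on the log2 scale, which is less than 2-fold. The usual receptors of *CCL27*, *CCL20* and *CCL21* were near absent, while no receptor was listed as that of *CXCL14*. *CCR10*, the receptor of *CCL27*, had 8, 5 and 11 UMIs in the whole anagen, catagen and telogen libraries. *CCR6* had 8, 4 and 10, and *CCR7* had 1, 0 and 1. Of the 10 telogen UMIs of *CCR6*, 9 were in an unnamed cluster of 50 cells led by *RGS1*, *VIM*, *CD74* and *FCER1A*. That cluster had *CXCR4* at 729 CPM and *CCL5* at 315 CPM, from 102 and 44 UMIs, levels looked at after the data had been seen. The other atypical receptors, *ACKR2* and *ACKR3*, were under 10 CPM in each library, *ACKR3* with 3.74, 2.93 and 2.30 CPM.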

How the data were processed

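Single cells of pulled follicles from scapular yak skin were sequenced as 1 anagen, 1 catagen and 1 telogen library. The authors deposited UMI counts per gene and cell barcode, as whole numbers without normalization. Per their processing notes these came from Cell Ranger 2.1.1, while the file headers name versions 4.0.0, 3.1.0 and 6.0.2 for anagen, catagen and telogen. The genome build is not given in the sources used here. The summed counts of the cells kept were 82816430, 51537357 and 103430933 UMIs.

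Cells with at least 200 genes were kept. Anagen and catagen were integrated and telogen was clustered alone, the former after the study's methods, with Seurat 5.3.0 in R 4.3.3 (2000 variable genes per library, 30 principal components, 20 neighbours, resolution 0.8), and the 6 genes and other listed chemokine system genes were left out of the variable genes. A cluster was named where at least 3 markers of a class were raised 1.5-fold, with 10 CPM added, and a marker was among its 10 leading genes. Of 116 markers, 97 had an entry. Doublets were left in, since Scrublet (scanpy 1.11.5) called 0 cells in each library at its own threshold.

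UMIs were summed per library, class or cluster and given as CPM. Levels carry exact Poisson, ratios exact conditional binomial and shares Clopper-Pearson intervals, all at 95%. The upper limit for a count of 0 is that of 3 counts. With 1 library per stage no test was made. The alternatives were other scalings, cell filters, depths, resolutions and doublet removal. The set of 6 genes, the lists, markers and naming thresholds were chosen with earlier results of these data known. Genes named beside the 6 were the 3 most similar to each by Pearson correlation of log2(CPM + 10) over the clusters of anagen and catagen, among 3548 genes with at least 50 CPM in a cluster, other chemokine system genes with at least 10 CPM, the usual receptors *CCR10*, *CCR6* and *CCR7*, and genes that lead a cluster or mark a class. The log2 ratios and their intervals were tested on simulated counts with known folds, and the thinning on cells of the anagen library. Clustering, class naming and the correlations were not tested in this way.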

Additional observations from a re-analysis of the deposited data

Results flagged for a closer look

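Of the 6 genes, 3 had a telogen over anagen ratio of one sign in their named class of highest level and of the other sign in all other cells. In each case the difference between the pair of ratios was not tested. For *CCL27* the log2 ratio was 1.09 in Basal-like cells and -0.34 in all other cells. For *CXCL14* it was -0.43 in Hair stem and outer sheath-like cells and 0.73 in all other cells. For *ACKR1* it was 0.57 in Endothelial-like cells and -1.19 in all other cells, the latter from 0.426 CPM in telogen and 0.970 CPM in anagen. With a coarser clustering the ratio of *ACKR1* in Endothelial-like cells was -0.059. Telogen was clustered alone, and the classes of *CCL27* and *CXCL14* were made up of other clusters there than in anagen. The Endothelial-like class differed too, with *PTPRC* in 5 anagen and 0 telogen cells that had neither *CCL21* nor *ACKR1*.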

How the results depend on the processing

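No paired analysis was possible because each stage had 1 library. All values below are log2 ratios unless said otherwise, and the cause of each shift was not tested. With median-of-ratios scaling, catagen over anagen was -2.80 for *CCL27*, -0.38 for *CXCL14*, -1.29 for *CCL20* and 1.53 for *ACKR4*, and telogen over anagen -0.23 for *CCL27*, 0.97 for *CXCL14*, -1.59 for *CCL20*, -0.013 for *ACKR1* and 1.33 for *ACKR4*; the genes past 2-fold numbered 122 higher and 505 lower in catagen, and 316 higher and 254 lower in telogen. Over all genes with a UMI these numbers were 4138, 1986, 1807 and 4063. With the mean of the CPM of single cells, catagen over anagen was 0.074 for *CXCL14*, which reversed it, -1.15 for *CCL20* and -3.69 for *CCL21*, and telogen over anagen -0.29 for *CCL27*, 0.66 for *CXCL14*, -1.79 for *CCL20*, -0.73 for *ACKR1* and 0.80 for *ACKR4*. With cells of at least 2404 UMIs only, catagen over anagen was -0.38 for *CXCL14* and -0.92 for *CCL20*.

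With the cluster makeup of anagen held, chosen after the data had been seen, catagen over anagen was -2.76 for *CCL27*, -0.83 for *CXCL14*, -3.16 for *CCL21*, -0.83 for *ACKR1* and 1.67 for *ACKR4*, and telogen over anagen -0.38, 0.67, -3.77, 0.68 and 0.63 for the same genes, where *ACKR1* reversed, and -1.82 for *CCL20*. With all 3 libraries integrated, also chosen then, the leading class over the other cells was 3.91, 3.32 and 3.94 for *CCL27* and 2.95, 2.96 and 2.78 for *CXCL14* in anagen, catagen and telogen. Within the class, catagen over anagen was -2.52 for *CCL27* and -0.58 for *CXCL14*, and telogen over anagen reversed to -0.37 and 0.55. The boundaries of these clusters moved with the computing settings, that of the *CNFN*/*KLK5* cluster among them. The Endothelial-like and Upper follicle-like classes were not named in that clustering and gave no value. Most *CCL21* and *ACKR1* UMIs lay there in a Mesenchymal-like cluster of 97 anagen, 52 catagen and 60 telogen cells. It was led by *COL1A2*, *VIM* and *PECAM1*, so holding the makeup did not hold the share of endothelial cells by itself.

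At resolution 0.4, the class over the other cells was 4.45 for *CCL27* in telogen, 3.49 and 3.25 for *CXCL14* in anagen and catagen, 1.13 for *CCL20* in anagen, and 3.51 for *CCL21* and 7.14 for *ACKR1* in telogen. Within the class, telogen over anagen was -0.49 for *CXCL14*, -4.53 for *CCL21* and, reversed, -0.059 for *ACKR1*, and catagen over anagen was -1.43 for *CCL20*. At resolution 1.2, *CCL27* was at 2.86 and 2.52 in its class over the other cells in anagen and catagen and at 1.33 within it for telogen over anagen. Without the 5% of cells with the highest Scrublet scores, the class over the other cells was 3.20, 2.88 and 4.49 for *CCL27* and 3.51, 3.46 and 2.41 for *CXCL14* in anagen, catagen and telogen, and 1.30 for *CCL20* in anagen. Thinned to 3000 UMIs in place of 1500, *CCL27* was seen in 14.1%, 4.76% and 10.5% of anagen, catagen and telogen cells, *CXCL14* in 29.3%, 20.2% and 36.7%, *CCL20* in 21.4%, 8.36% and 6.06%, and *ACKR4* in 2.84%, 7.96% and 4.64%. Not thinned, these shares were 18.5%, 4.79% and 13.6%, then 41.2%, 28.1% and 46.4%, then 29.5%, 7.79% and 10.0%, and 5.11%, 9.53% and 8.23%, and in anagen those of *CCL21* and *ACKR1* were 0.476% and 0.726%. Without a cell filter, all 12 ratios of whole libraries stayed within their intervals. Levels of *CCL21* in catagen and telogen rest on 28 and 48 UMIs, which limits their precision, and the 47 to 82 Endothelial-like cells per library limit every share given for them.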

Other observations

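*CCL19*, a further ligand of CCR7, is the protein-coding chemokine gene between *CCL27* and *CCL21* in the gene order of the RefSeq yak assembly Bosgru_T2T1.0, which was used for gene order only. It was looked at after its values had been seen. *CCL19* had 208 UMIs in anagen, 16 in catagen and 247 in telogen (2.51, 0.310 and 2.39 CPM), and catagen was the lowest library, as it was for *CCL27*. In anagen its UMIs were most numerous in the Upper follicle-like cluster, with 43 UMIs or 20.7% of the library's total, and in catagen in the *P3H2*/*MYLK* cluster of Basal-like cells, which was low in *CCL27*, with 7 of the 16 UMIs. In telogen they were most numerous in the *CCL27*/*IL1R2* cluster of Basal-like cells, with 64 UMIs or 25.9% of the library's total, at 15.2 CPM.

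The other chemokines given here were also chosen after their values had been seen. *CCL26* was seen in 116 anagen, 83 catagen and 129 telogen cells. In anagen and catagen its UMIs were most numerous in Contractile-like cells, the class named from *ACTA2*, *TAGLN* and *MYL9*. These had 152 of its 238 anagen UMIs in 97 cells and 36 of its 105 catagen UMIs in 120 cells. In telogen, where that class was not named, 107 of its 218 UMIs were in the *IGFBP5*/*CCN2*/*C3* cluster of 1215 Hair stem and outer sheath-like cells. *CXCL8*, the neutrophil-attracting chemokine, had 55 of its 58 catagen UMIs in the 48 Endothelial-like cells, and 66 of its 83 telogen UMIs in the 50 cells of the *RGS1*/*VIM*/*CD74* cluster. The catagen class also held cells with *PTPRC*, and *RGS1* was among the leading genes of its cluster. In the clustering of all 3 libraries, *CXCL8* was among the leading genes of the *RGS1*/*VIM*/*FCER1A* cluster. Which cells of the catagen class had *CXCL8* was not tested. *CCL17* had 296 UMIs in telogen against 20 in anagen and 2 in catagen. They came from 9 cells, the highest with 128, and 289 lay in the Mitotic-like cluster.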
